A study of Mus musculus with 768 samples.

Results

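The 10 transcription factor genes described here are factors of striatal spiny projection neurons (SPNs), followed across 2 plates of single mouse nuclei. They are Isl1, Ebf1, Zfp521, Sp9, Foxp1, Foxp2, Bcl11b, Meis2, Rarb and Bach2, taken by name as 10 of the 24489 genes in the counts table, and all 10 had reads. The series holds 768 wells with 1 nucleus each, in 2 plates of 16 by 24 wells. One plate came from Oprm1-Cre:H2BG mice, whose Cre is driven from the mu opioid receptor gene and was chosen to include patch neurons, and the other from Slc32a1-Cre:H2BG mice, whose Cre is driven from the vesicular GABA transporter gene and was chosen for GABAergic neurons. All mice were C57BL/6 and untreated; the sources used here do not give their ages and number, and which cells carry the H2BG label follows the Cre driver. No animals are named, so each genotype is 1 sample, nuclei are not replicates, no test between groups was possible, and every interval below covers counting error only. These are reads without molecular identifiers, and a PCR copy is not an independent molecule.

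SPNs are the output cells of the striatum and fall into a direct pathway type that expresses the dopamine receptor gene Drd1 and an indirect pathway type that expresses Drd2. Isl1, Ebf1 and Zfp521 are known for their roles in the differentiation of direct pathway neurons, and Sp9 for its role in indirect pathway neurons, while Foxp1, Bcl11b (also called Ctip2), Meis2 and Rarb are known from both types. Striatal tissue is further divided into patches (striosomes), rich in the mu opioid receptor, and the matrix around them.

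The members were compared over groups of nuclei that did not use them: all 10 were left out of the clustering, of the class markers and of the patch and matrix lists. After 29 Oprm1-Cre and 3 Slc32a1-Cre wells were left out for low depth, 736 nuclei were kept, and 696 of them were SPN-like. In the Oprm1-Cre plate 89.3% of the SPN-like nuclei were D1-like, 24 nuclei were D2-like and 12 were undecided; in the Slc32a1-Cre plate 56.2% were D1-like, 40.997% D2-like and 10 nuclei undecided. Over both plates there were 502 D1-like nuclei. Interneuron-like nuclei numbered 15 and 18. Median depth was 169398 reads on genes per kept nucleus (22727 to 581313) for Oprm1-Cre, and for Slc32a1-Cre it was 175337 (34513 to 487842). The marker levels are given as a description, since these markers took part in naming the classes: in CPM, a group's reads of a gene for each 1000000 of its reads on all genes, Drd1 reached 1836 and 2141 CPM among D1-like nuclei, against 13.6 and 15.5 CPM among the D2-like, and Lhx6, an interneuron factor, was at 472 and 531 CPM in interneuron-like nuclei against at most 0.436 CPM in D1-like and D2-like nuclei. The plates also differed in sex-linked genes: reads of 4 Y-linked genes were found in 90.99% of kept Oprm1-Cre nuclei and in 0 of the Slc32a1-Cre nuclei, which allows a share of up to 0.787%, and Xist had reads in 1.97% and 72.7%. Genotype, plate and the sex of the donors cannot be told apart. One SPN-like cluster, number 4 (74 Oprm1-Cre and 20 Slc32a1-Cre nuclei), had Vcan, a marker of oligodendrocyte precursors, among its 10 leading genes. Each of the 10 SPN markers was found in over 10% of its nuclei, as in every other SPN-like cluster. In cluster 4 Vcan averaged 145.5 CPM with reads in 30.9% of nuclei. The precursor markers Pdgfra and Cspg4 were at 0 there, and Olig1 and Olig2 averaged 4.14 and 5.12 CPM. Results that move without that cluster are given both ways.

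The 10 genes lie on 8 chromosomes (GRCm38, the assembly named mm10 in the submitters' notes, with GENCODE gene models), and all are protein coding. Isl1 spans chr13:116298281-116309689 and Sp9 chr2:73271925-73284706, both short genes of 11.4 and 12.8 kb. The others are long: Ebf1 chr11:44617317-45008091, Foxp1 chr6:98925338-99522721, Foxp2 chr6:14901349-15441977, Bcl11b chr12:107910403-108003602, Meis2 chr2:115863064-116065839, Rarb chr14:16430839-16819156, Bach2 chr4:32238804-32586108 and Zfp521 with 285.8 kb. Levels are therefore compared between groups of nuclei for 1 gene, never between genes. Exons of Sp9, Rarb and Bach2 overlap an exon of a gene on the opposite strand (Cir1, Top2b and Bach2os), and the sources used here do not say whether counting used strand. Cir1 was at 3.24 and 1.70 CPM in Oprm1-Cre D1-like and D2-like nuclei and at 4.63 and 5.88 CPM in Slc32a1-Cre ones, Top2b lay between 109.5 and 129.2 CPM in these 4 groups, and Bach2os at most at 0.236 CPM.

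The promoters of Isl1, Ebf1 and Sp9 are shown because, of the members with a RefSeq window, these had summed levels that differed between D1-like and D2-like nuclei the same way in both plates. Each line gives the 250 bases before the RefSeq start site (GRCm38.p6), written 5′ to 3′ on the strand of the gene. Capitals mark a match on either strand to GGGCGG (an SP box) or to CCAAT. The windows are chr13:116309689-116309938 (minus strand) for Isl1, chr2:73271676-73271925 (plus strand) for Sp9 and chr11:44617850-44618099 (plus strand), the first of its 2 windows, for Ebf1.
Isl1: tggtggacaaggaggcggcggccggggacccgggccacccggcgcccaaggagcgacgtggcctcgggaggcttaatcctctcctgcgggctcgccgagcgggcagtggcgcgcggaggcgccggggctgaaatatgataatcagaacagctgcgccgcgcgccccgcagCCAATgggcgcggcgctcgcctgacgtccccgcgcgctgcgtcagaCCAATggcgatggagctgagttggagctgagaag
Sp9: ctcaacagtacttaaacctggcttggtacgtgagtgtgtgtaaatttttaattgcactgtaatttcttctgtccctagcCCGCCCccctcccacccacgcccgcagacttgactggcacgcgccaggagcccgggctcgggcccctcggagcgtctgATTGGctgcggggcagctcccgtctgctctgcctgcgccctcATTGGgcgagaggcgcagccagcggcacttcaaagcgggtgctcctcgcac
Ebf1: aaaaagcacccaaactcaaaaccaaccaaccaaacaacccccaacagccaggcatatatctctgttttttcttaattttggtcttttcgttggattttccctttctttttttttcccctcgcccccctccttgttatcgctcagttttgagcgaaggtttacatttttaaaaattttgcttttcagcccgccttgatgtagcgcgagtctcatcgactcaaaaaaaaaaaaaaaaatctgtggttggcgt
The Isl1 window was 71.2% G or C with 33 CpG dinucleotides, the Sp9 window 62.4% with 18 and the Ebf1 window 40% with 9, beside a median of 52.4% over all promoters of that length. Isl1 held 2 CCAAT matches and Sp9 held 2 as well, together with 1 GGGCGG match. Ebf1 held none of the 8 motifs searched. Of 32536 distinct mouse promoters, 33.8% held CCAAT and 33% held GGGCGG, so neither match sets these windows apart. The other motifs searched, on both strands, were TAAACA (forkhead, in 12% of promoters), TCCC followed after any 2 bases by GGGA (EBF, 0.787%), TGACAG (MEIS, 15.8%), AGGTCA (retinoic acid receptor, 14%), TGAGTCA (BACH and AP-1, 4.45%) and TATAAA (12.3%). Of the members with a window, TAAACA was found in Foxp1 alone, in each of its 3 windows, TGACAG in 1 of those 3, and TATAAA in Meis2. RefSeq windows were matched for 8 of the 10 members; Foxp2 and Zfp521 are named only.

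Between the D1-like and D2-like nuclei most of the 10 factors fell into 3 patterns, while Rarb and Bach2 differed between the plates. Isl1, Ebf1, Zfp521 and Foxp2 were higher in D1-like nuclei of both plates, Sp9 was higher in D2-like nuclei of both, and Foxp1, Bcl11b and Meis2 differed by less than 0.5 on the log2 scale in both. The log2 ratio of the summed CPM was taken with 5 CPM added to both sums, so ratios of genes with few reads come out too small. A gene was counted where it reached 5 CPM in either group, and a log2 ratio past 0.5 was counted as a difference. In the Oprm1-Cre plate 6 of 10 members were above 0.5 and 1 below -0.5, where 30.3% and 19.3% of all measured genes were. In the Slc32a1-Cre plate 4 were above and 2 below, with 14.5% and 10.4% of all measured genes. The median over the members was 0.84 in the first plate and -0.08 in the second, beside 0.10 and 0.03 over all measured genes. That background is broader in the Oprm1-Cre plate, where 24 nuclei and 4125057 reads make up the D2-like sum, beside 29598687 reads for Slc32a1-Cre.

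**Figure D1:**
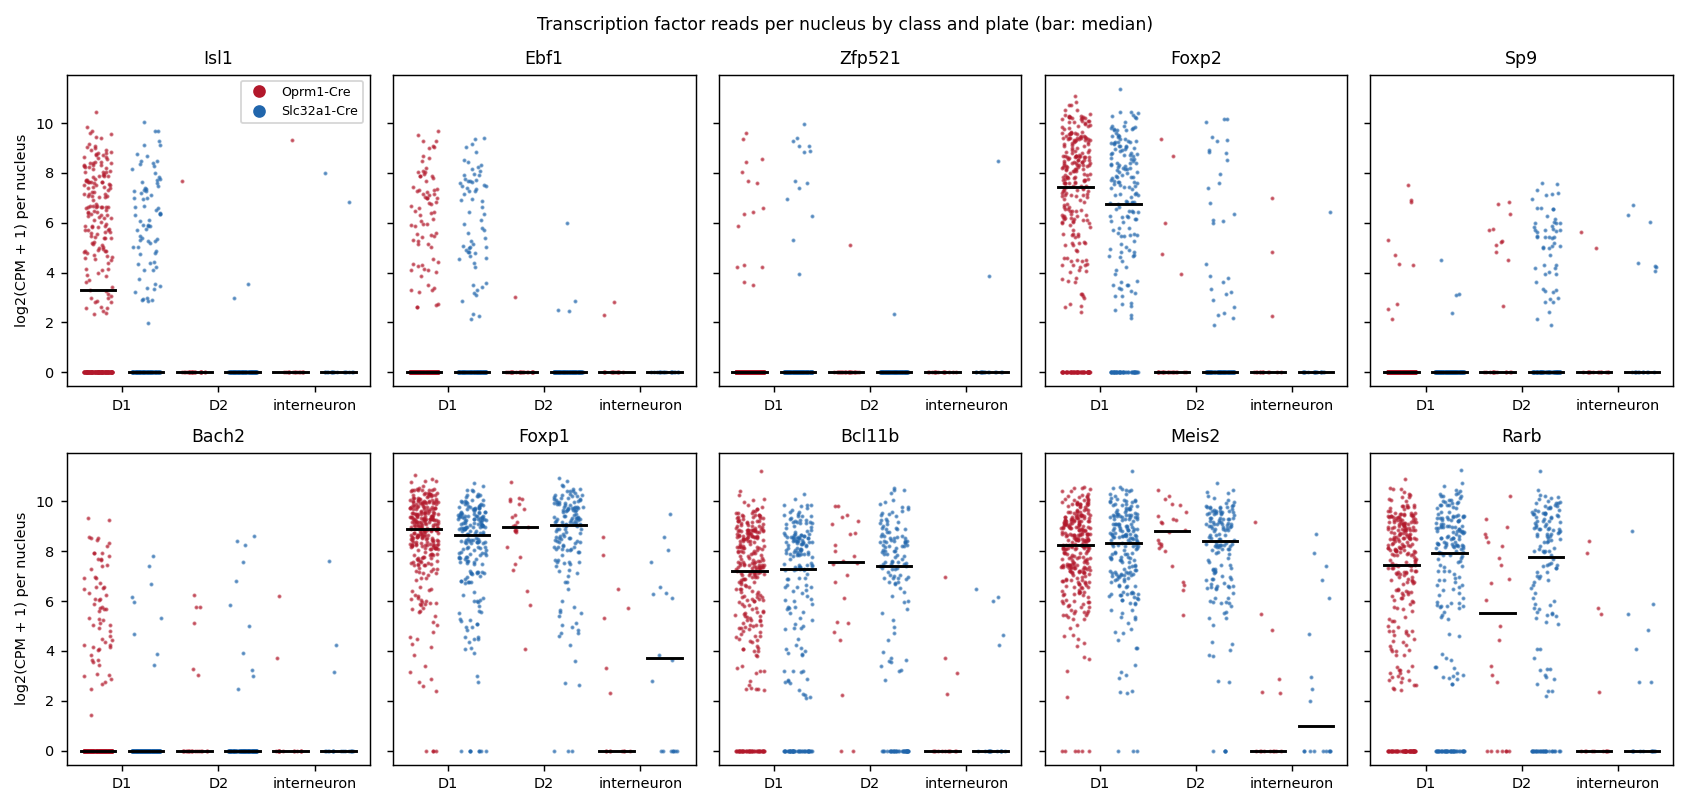
Reads of each factor in single nuclei, as log2(CPM + 1) on the vertical axis, for D1-like, D2-like and interneuron-like nuclei of the Oprm1-Cre plate (red) and the Slc32a1-Cre plate (blue); each point is 1 nucleus and the bar is the median. Isl1 and Ebf1 have nearly all their points above 0 in the D1 columns. Sp9 has most of its points above 0 in the D2 columns, with others in the D1 and interneuron columns. Foxp1 and Meis2 fill both SPN types.

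Isl1, a LIM homeodomain factor, had reads in 54.8% of Oprm1-Cre D1-like nuclei, with 0, 8.99 and 1375 CPM as the lowest, median and highest value. Of the Slc32a1-Cre D1-like nuclei 77 (37.9%) had reads, with a median of 0 and a highest value of 1046 CPM. Only 1 Oprm1-Cre and 2 Slc32a1-Cre D2-like nuclei had an Isl1 read. The D1-like nuclei thus hold almost all Isl1 reads of the SPNs, and many of them hold none. Summed, Isl1 was at 97.9 CPM (95% interval 95.3 to 100.5) in Oprm1-Cre D1-like against 6.79 CPM (4.51 to 9.81) in D2-like nuclei, a log2 ratio of 3.13, and all 28 reads of that D2-like sum came from 1 nucleus at 202.4 CPM. The Slc32a1-Cre sums were 56.8 CPM (54.4 to 59.3) against 0.0676 CPM (2 reads), a log2 ratio of 3.61 and 841 times as much, with a counting interval from 232.6 to 6950.3.

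Ebf1, an early B-cell factor of the helix-loop-helix class, also had no reads in many D1-like nuclei. It had reads in 77 Oprm1-Cre (25.8%, highest 819 CPM) and 65 Slc32a1-Cre nuclei (32.02%, highest 666 CPM), with a median of 0 in both. The sums were 36.4 CPM in D1-like nuclei against 0.242 CPM, a single read, in Oprm1-Cre D2-like nuclei (log2 ratio 2.98; 150.02 times as much, interval 26.9 to 5929), and 45.5 against 0.473 CPM in the Slc32a1-Cre plate (3.21). Of 14 reads in the D2-like nuclei of the second plate, 78.6% came from 1 nucleus. Ebf1 was therefore close to absent from D2-like nuclei while also missing from most D1-like ones at this depth.

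Zfp521, a zinc finger gene that codes for a partner of EBF1, had reads in few D1-like nuclei. Reads lay in 16 and 14 D1-like nuclei (5.35% and 6.90%), but in those the median was 90.2 CPM (10.2 to 779) and 332.5 CPM (14.2 to 987). Of the D2-like nuclei 1 in each plate had reads (33.6 and 3.99 CPM). The sums gave log2 ratios of 1.26 (10.5 against 1.45 CPM) and 2.64 (26.4 against 0.0338 CPM). Zfp521 was thus a gene of few nuclei with many reads each, and in the Oprm1-Cre plate 25% of its D1-like reads came from 1 nucleus.

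Foxp2, a forkhead factor known for its role in vocal learning, had reads in most D1-like nuclei. Reads were present in 79.9% of Oprm1-Cre D1-like nuclei (median 171.5 CPM, highest 2158) and 77.3% of Slc32a1-Cre ones (median 107.2 CPM, highest 2659), against 5 of 24 and 31 (20.9%) D2-like nuclei with a median of 0. The ranges overlap: the highest D2-like nuclei had 658 and 1139.6 CPM, above the D1-like medians. The sums were 300.9 against 31.5 CPM (log2 ratio 3.07) and 268.3 against 56.96 CPM (2.14). Of the D2-like Foxp2 reads 70% and 16.8% came from 1 nucleus, and without the top nucleus of each sum the first ratio was 4.35.

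Sp9, a zinc finger factor of the SP family, was the one member higher in D2-like nuclei of both plates. It had reads in 11 of 24 Oprm1-Cre (highest 112.05 CPM) and 57 Slc32a1-Cre D2-like nuclei (38.5%, highest 191.5 CPM). Reads also lay in 10 and 4 D1-like nuclei (highest 180.5 and 21.5 CPM). The highest Oprm1-Cre D1-like nucleus lay above every D2-like nucleus of that plate, and 34.4% of the D1-like reads there came from 1 nucleus. The sums were 1.75 CPM in D1-like against 23.8 CPM in D2-like nuclei (log2 ratio -2.09; 13.6-fold higher in D2-like) and 0.163 against 20.2 CPM (-2.29; 123.6-fold). Cir1, which overlaps Sp9, was lower in D2-like nuclei of the first plate (3.24 and 1.70 CPM) and higher in those of the second (4.63 and 5.88 CPM), and its part in the Sp9 reads was not tested.

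Foxp1, Bcl11b and Meis2 were found in most nuclei of both types. Foxp1, the forkhead paralog of Foxp2, had a median of 474 and 403 CPM in D1-like and 506 and 534 CPM in D2-like nuclei, with reads in at least 96.1% of each group. Its sums were 563 against 618 CPM (log2 ratio -0.13) and 471 against 612 CPM (-0.37). Bcl11b, a zinc finger factor of SPNs, had sums of 264.3 against 315.4 CPM (-0.25) and 242.5 against 270.7 CPM (-0.16). Meis2, a TALE homeodomain factor, had sums of 397 against 471 CPM (-0.24) and 401 against 436 CPM (-0.12). All 3 were slightly lower in the D1-like sums of both plates, by amounts inside 0.5, and the highest D1-like nucleus of each lay between 1248 and 2361 CPM while the lowest was 0.

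Rarb, a retinoic acid receptor, and Bach2, a basic leucine zipper factor, gave ratios that differed between the plates. Rarb was at 294.6 against 205.3 CPM in the Oprm1-Cre plate, a log2 ratio of 0.51 that stood within 0.5 under 6 of 14 other settings, and at 336.4 against 346.9 CPM (-0.04) in the Slc32a1-Cre plate. Its median in the 24 D2-like nuclei of the first plate was 47.6 CPM against 171.6 CPM in D1-like nuclei, with 219.8 and 242.8 CPM in the second plate. Bach2 had reads in 68 D1-like (22.7%) and 6 D2-like (25%) Oprm1-Cre nuclei, and in 9 (4.43%) and 11 (7.43%) Slc32a1-Cre ones. Its sums were 22.7 against 7.27 CPM (log2 ratio 1.17) in the Oprm1-Cre plate and 3.43 against 12.2 CPM (-1.03) in the Slc32a1-Cre plate. The directions were opposite, and they stayed so in 14 of 14 other settings, with ranges of 0.99 to 1.52 and -1.58 to -0.75; the difference between the plates was not tested. In the second plate 37.6% of the D2-like reads came from 1 nucleus, and without the top nucleus of each sum the ratio was -0.79.

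**Figure D2:**
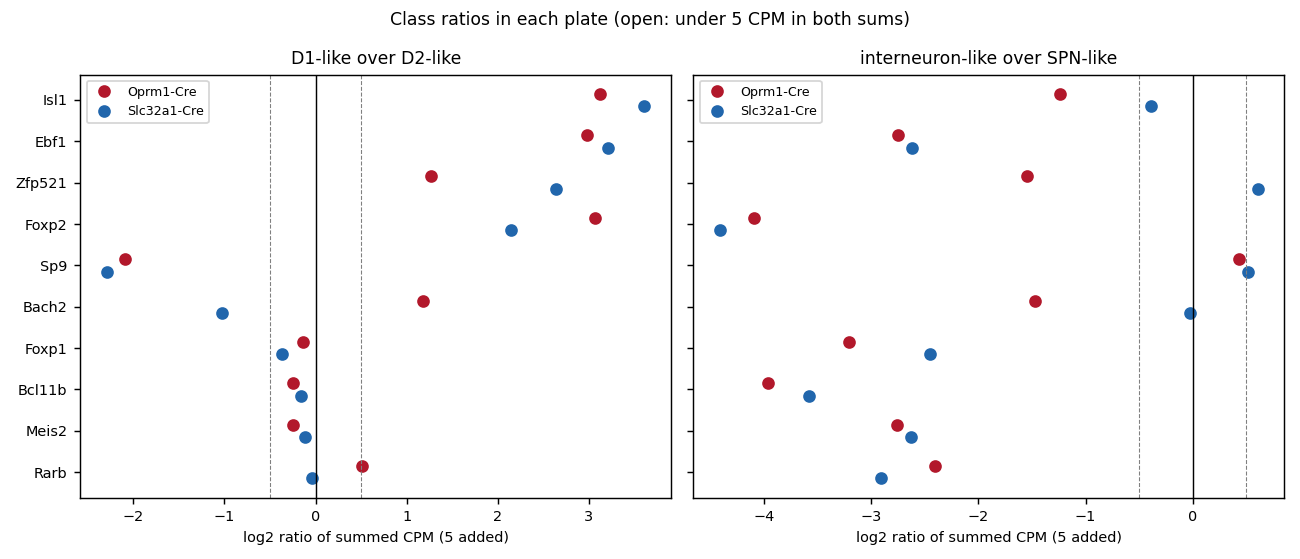
Log2 ratio of summed CPM (5 added) for each factor, D1-like over D2-like (left) and interneuron-like over SPN-like (right), in the Oprm1-Cre plate (red) and the Slc32a1-Cre plate (blue); dashed lines mark 0.5 and -0.5. On the left Isl1, Ebf1, Zfp521 and Foxp2 lie right of 1 in both plates, Sp9 near -2, and Bach2 on opposite sides; on the right Foxp2, Bcl11b, Foxp1, Meis2, Rarb and Ebf1 lie below -2.

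Shares of nuclei with a read were compared after thinning each nucleus to 50000 reads; 2 Oprm1-Cre and 1 Slc32a1-Cre D1-like nuclei and 0 D2-like ones were too shallow for it. Isl1 was then found in 48.5% (exact 95% interval 42.7% to 54.3%) of D1-like and 4.17% (0.105% to 21.1%) of D2-like Oprm1-Cre nuclei, and in 32.2% (25.8% to 39.1%) and 0.676% (0.0171% to 3.71%) of Slc32a1-Cre nuclei. Foxp2 was in 75.1% against 16.7% and in 71.8% against 14.2%. Sp9 was in 2.02% against 41.7% and in 0.495% against 30.4%. Before thinning these were 54.8% and 4.17%, 37.9% and 1.35% for Isl1, 79.9% and 20.8%, 77.3% and 20.9% for Foxp2, and 3.34% and 45.8%, 1.97% and 38.5% for Sp9. Few nuclei held reads of both Isl1 and Sp9: 3 thinned Oprm1-Cre D1-like nuclei had both and 3 had Sp9 alone, and in the Slc32a1-Cre D1-like nuclei 0 had both. Among thinned D2-like nuclei, 1 in each plate had both, with 9 and 44 holding Sp9 alone. Isl1 and Ebf1 were found together in 29 and 21 D1-like nuclei, with 37 and 34 holding Ebf1 alone. Of the 10 members a D1-like nucleus held a median of 5 and a D2-like nucleus 4 in both plates.

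Within D1-like nuclei correlations between the members were mostly low. Ebf1, Zfp521, Sp9 and Bach2 had a median of 0 CPM there in both plates, so low values need not mean that these factors vary independently. Over the 45 pairs, correlations of log2(CPM + 1) ran from -0.12 to 0.20 over the Oprm1-Cre nuclei and from -0.09 to 0.35 over the Slc32a1-Cre nuclei (502 in all), which share a plate and vary in depth. The pair with the highest value in the Slc32a1-Cre plate was Foxp1 with Bcl11b (0.35, and 0.16 in the Oprm1-Cre plate), and Bcl11b with Meis2 (0.24 and 0.11) was the one other pair above 0.1 in both. Correlation of single members with the log2 depth of a nucleus ran from -0.08 to 0.11 and from -0.05 to 0.16. Over all SPN-like nuclei (696 in all; Slc32a1-Cre value first) the genes most like Isl1 were Drd1 (0.39; 0.23), Slc35d3 (0.37; 0.18) and Tac1 (0.37; 0.26), those most like Foxp2 were Tac1 (0.53; 0.31), Drd1 (0.51; 0.25) and Chrm4 (0.48; 0.19), and those most like Sp9 were Adora2a (0.42; 0.37), Drd2 (0.41; 0.33) and Gpr6 (0.41; 0.35). All of these but Chrm4 were class markers. For Ebf1 the list was Drd1 (0.36; 0.15), Fxyd7 (0.34; 0.19) and Chrm4 (0.30; 0.18), for Bcl11b Hpca (0.33; 0.23), Ppp1r1b (0.31; 0.20) and Foxp1 (0.31; 0.18), and for Foxp1 Ppp1r9a (0.31; 0.28), Phactr1 (0.31; 0.28) and Bcl11b. The 3 genes most like Zfp521, Slc7a1 (0.25), Stk39 (0.22) and Ldb2 (0.22), were at -0.06, -0.08 and -0.04 in the Oprm1-Cre plate. For Meis2, Rarb and Bach2 the leading genes (Ddn 0.26, Myh10 0.23 and Zcchc14 0.20) were at 0.01, 0.11 and 0.09 there.

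Patch and matrix leaning was read from 9 patch genes and 8 matrix genes as the mean log2(CPM + 1) of the first list minus that of the second, with nuclei above 0.5 called patch-leaning and below -0.5 matrix-leaning. A leaning is a range of a score and not a cell type, and 75 Oprm1-Cre and 24 Slc32a1-Cre D1-like nuclei lay within 0.5 of a limit. Of the Oprm1-Cre D1-like nuclei 60.9% were patch-leaning, 82 matrix-leaning and 35 between; of the Slc32a1-Cre ones 22 were patch-leaning, 170 matrix-leaning and 11 between. The sums of Zfp521 and Ebf1 were lower and that of Foxp2 was higher in patch-leaning nuclei of both plates, but not firmly in both. Each Slc32a1-Cre value rests on at most 22 patch-leaning nuclei, which held no Zfp521 read, and the Foxp2 ratio there fell as low as 0.06 in other settings. The Oprm1-Cre Ebf1 ratio lay within 0.5 in 6 of 17 other settings. Isl1, Bcl11b, Meis2 and Rarb were within 0.5. In the Oprm1-Cre plate 1 of 9 measured members was above 0.5 and 2 below -0.5 (15.4% and 15.6% of all measured genes), and in the Slc32a1-Cre plate 1 of 8 above and 3 below (23.2% and 34.9%). These counts are near the background, which is centred at -0.13 in the Slc32a1-Cre plate, where the patch-leaning sum rests on 22 nuclei.

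Zfp521 reads lay mostly in matrix-leaning nuclei. Among Oprm1-Cre D1-like nuclei 4 patch-leaning and 10 of 82 matrix-leaning ones had reads, with highest values of 202.3 and 779 CPM, and the sums were 2.09 CPM (1.64 to 2.64) against 33.5 CPM (30.6 to 36.6), a log2 ratio of -2.44 and 15.99-fold lower. Among Slc32a1-Cre D1-like nuclei 0 of 22 patch-leaning nuclei had a read, which allows a share of up to 14.3% of the 21 nuclei deep enough to thin. With reads in 14 of 170 matrix-leaning nuclei (8.24%, 30.8 CPM), a difference in that plate was not detectable with so few patch-leaning nuclei. Seen from the nuclei, the 14 Slc32a1-Cre nuclei with Zfp521 all leaned below 0, from -6.27 to -1.78, with a median of -3.94 beside -2.78 for the other D1-like nuclei. Of the 16 Oprm1-Cre nuclei 12 leaned below 0, with a median of -1.65 beside 1.42. The Oprm1-Cre ratio ranged from -3.48 to -2.24 over 17 other settings. The pattern rests on 30 nuclei in all, and depth was close to the others, with medians of 184228 and 191562 reads in nuclei with Zfp521 against 169398 and 165998.

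Ebf1 was at 31.9 CPM in patch-leaning against 49.04 CPM in matrix-leaning Oprm1-Cre D1-like nuclei, where 40 (21.98%) and 29 (35.4%) nuclei had reads. That log2 ratio of -0.55 lay within 0.5 in 6 of 17 other settings (-0.20 after thinning). For Slc32a1-Cre, Ebf1 was at 12.6 CPM (3 of 22 nuclei, 75% of the reads in 1) against 49.1 CPM (60 of 170), a log2 ratio of -1.62 that was -0.99 without cluster 4 and -2.63 without the top nucleus of each sum.

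Foxp2 was higher in patch-leaning nuclei, with medians of 224.9 against 90.96 CPM and sums of 352.1 against 198.8 CPM in the Oprm1-Cre plate, a log2 ratio of 0.81 that ranged from 0.77 to 0.97 over 17 other settings. The Slc32a1-Cre medians were 110.4 and 86.3 CPM and the sums 365.4 against 244.9 CPM (0.57). There 36.01% of the patch-leaning reads came from 1 nucleus at 2659 CPM, and the ratio was 0.06 without the top nucleus of each sum and 0.13 without cluster 4. The Slc32a1-Cre value thus rests on 1 nucleus, while that of the Oprm1-Cre plate does not.

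Foxp1 took opposite signs, at 592 against 520.3 CPM (log2 ratio 0.18) in the Oprm1-Cre plate, inside 0.5, and at 282.96 against 490.0 CPM (-0.78) in the Slc32a1-Cre plate, with medians of 224.6 and 421 CPM. The second value was -0.31 when only the nuclei at both ends of the score were compared. The remaining members gave log2 ratios of 0.11 and -0.09 for Isl1, 0.09 and -0.17 for Bcl11b, 0.02 and 0.13 for Meis2 and 0.22 and -0.16 for Rarb. Isl1 in the Slc32a1-Cre plate ranged from -0.70 to 0.69 over the other settings, the upper end without cluster 4, so that value has no stable direction. Bach2 was equal in the Oprm1-Cre plate (23.9 and 23.9 CPM), but its ratio ran from -0.53 between the ends of the score to 0.67 with a limit of 1.5 (0.63 without cluster 4), and in the Slc32a1-Cre plate it had no read in patch-leaning and 3.28 CPM in matrix-leaning nuclei, under the minimum level. Sp9 was under the minimum level in both.

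**Figure D3:**
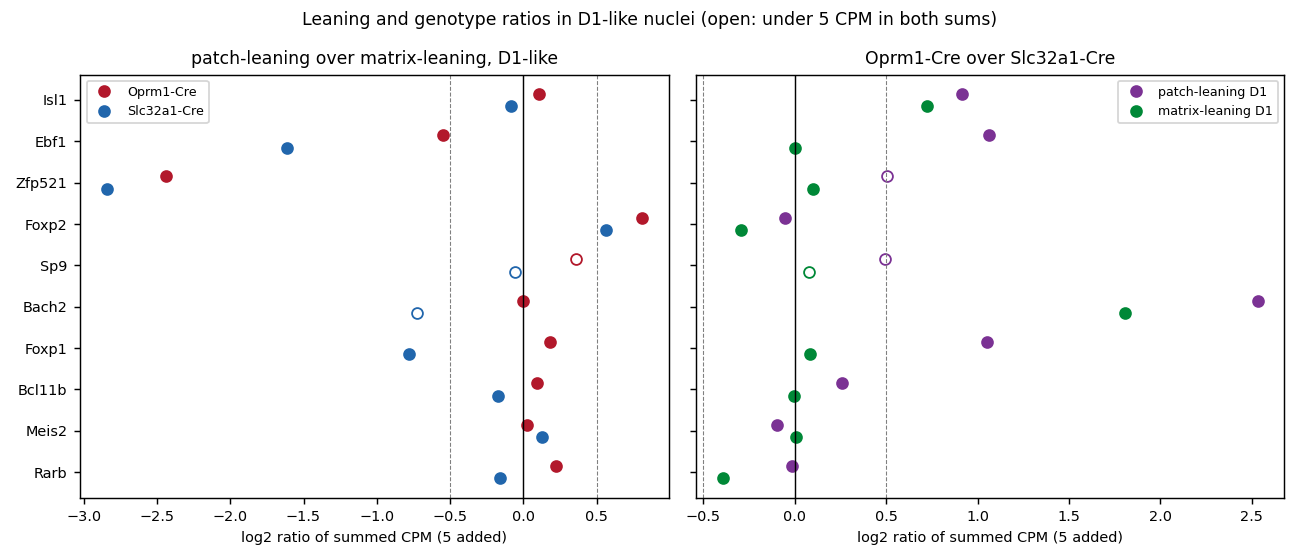
Log2 ratio of summed CPM (5 added) in D1-like nuclei: patch-leaning over matrix-leaning in each plate (left), and Oprm1-Cre over Slc32a1-Cre within patch-leaning and matrix-leaning nuclei (right); open points had under 5 CPM in both sums. On the left Zfp521 lies at -2.44 and -2.84 and Foxp2 at 0.81 and 0.57, the Slc32a1-Cre value of each resting on 22 patch-leaning nuclei. On the right Bach2 lies at 2.53 and 1.80.

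D2-like nuclei allowed 1 such comparison, since 2 of the 24 Oprm1-Cre nuclei were patch-leaning. In the Slc32a1-Cre plate 6 patch-leaning nuclei were set against the matrix-leaning ones, with 2 of 7 measured members above 0.5 and 2 below -0.5 where 25.6% and 50.4% of all measured genes were, around a median of -0.52. Sp9 was at 10.7 against 21.05 CPM (log2 ratio -0.73), Rarb at 209.8 against 351.97 CPM (-0.73) and Foxp1 at 864 against 600.4 CPM (0.52). None of these held in all 17 other settings: Sp9 and Foxp1 lay within 0.5 in 3 and Rarb in 2, and relative to the median of all genes Sp9 was at -0.20, Rarb at -0.21 and Foxp1 at 1.04. Bach2 was at 91.2 against 8.39 CPM (2.84), all from 1 nucleus at 385 CPM, and the ratio was -1.11 without the top nucleus of each sum.

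Between the genotypes, D1-like nuclei differed in Bach2, Isl1 and Zfp521. The D1-like nuclei came from different clusters in the plates: 62.6% of Slc32a1-Cre ones were in cluster 2, which held Xist among its leading genes, and 37.1%, 27.1% and 24.4% of Oprm1-Cre ones in clusters 1, 3 and 4, the last with the Y-linked gene Ddx3y among its leading genes. Bach2 was at 22.7 CPM (21.4 to 23.98) in the Oprm1-Cre against 3.43 CPM (2.86 to 4.09) in the Slc32a1-Cre plate, a log2 ratio of 1.72 and 6.61-fold more (counting interval 5.50 to 8.001), and 1.67 without cluster 4. Isl1 was at 97.9 against 56.8 CPM (0.73; 0.62 without cluster 4) and Zfp521 at 10.5 against 26.4 CPM (-1.02; -0.82). Thus 2 of 9 measured members were above 0.5 and 1 below -0.5, beside 14.6% and 12.1% of all measured genes. The other 6 lay between -0.29 (Ebf1) and 0.25 (Foxp1).

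The sums by cluster that follow hold all nuclei of a cluster, undecided and D2-like ones included. Bach2 was higher in the Oprm1-Cre nuclei of clusters 1 (19.9 against 6.51 CPM), 3 (29.1 against 9.83) and 5 (20.5 against 1.98). Slc32a1-Cre nuclei with Bach2 reads were 9.52% of 21, 6.45% of 31 and 14.3% of 14 there. In cluster 4 (22.6 against 16.8) all 50 Slc32a1-Cre reads came from 1 undecided nucleus at 325.7 CPM. Bach2 had no read in the 6 Oprm1-Cre nuclei of cluster 2 (3.07 CPM in the Slc32a1-Cre nuclei). Isl1 was higher in the Oprm1-Cre nuclei of clusters 1 to 4 and lower in those of cluster 5: it was at 112.8 against 98.6 CPM in cluster 1, 89.6 against 48.5 in cluster 2, 58.02 against 39.5 in cluster 3, 107.8 against 10.7 in cluster 4 and 89.9 against 101.7 in cluster 5. Foxp1 was at 556 against 316.1 CPM in cluster 1 and 593 against 183.98 in cluster 4, but 188.4 against 459 in cluster 2, 463 against 528 in cluster 3 and 728 against 694 in cluster 5.

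Within one leaning the Zfp521 difference was not seen: matrix-leaning D1-like nuclei had 33.5 and 30.8 CPM (log2 ratio 0.10), and patch-leaning ones 2.09 and 0 CPM. Patch-leaning nuclei make up 60.9% of the Oprm1-Cre and 10.8% of the Slc32a1-Cre D1-like nuclei. The summed level of Bach2 differed in both leanings, at 23.9 against 0 CPM in patch-leaning nuclei and 23.9 against 3.28 CPM in matrix-leaning ones (1.80). After thinning, 20.6% (14.9% to 27.2%) of patch-leaning Oprm1-Cre nuclei had a Bach2 read, against 0% of 21 Slc32a1-Cre ones. The exact upper limit for that 0% is 16.1%, so the intervals of these shares overlap. Isl1 was at 100.9 against 51.1 CPM (0.92) and 93.3 against 54.6 CPM (0.72), but the patch-leaning ratio was 0.01 without cluster 4, and both lay within 0.5 in 3 of 17 other settings. Foxp1 was at 592 against 282.96 CPM (1.05) in patch-leaning and 520.3 against 490.0 CPM (0.09) in matrix-leaning nuclei, and Ebf1 at 31.9 against 12.6 CPM (1.06) and 49.04 against 49.1 CPM (0.00). The first Ebf1 ratio ran from 0.21 to 1.99 and lay within 0.5 in 2 of 17 other settings. In all, 4 of 8 measured members were above 0.5 and 0 below -0.5 in patch-leaning nuclei (35.1% and 23.8% of measured genes), and 2 and 0 of 9 in matrix-leaning nuclei (18.9% and 17.4%).

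**Figure D4:**
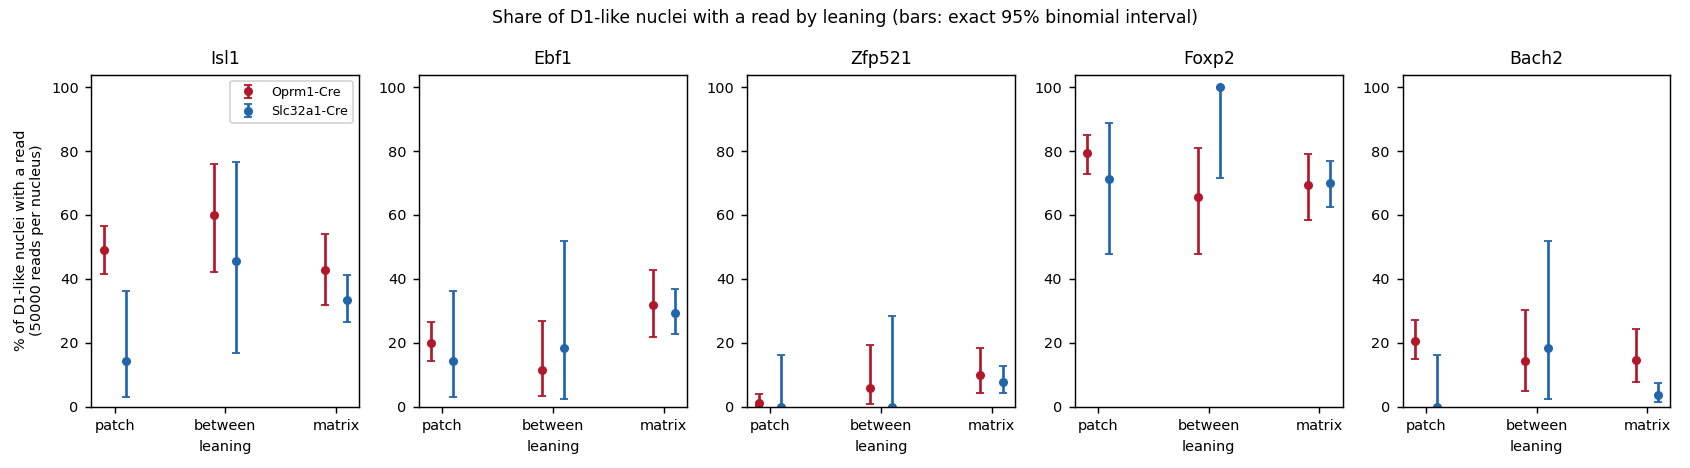
Share of D1-like nuclei with a read after thinning to 50000 reads per nucleus, for patch-leaning, between and matrix-leaning nuclei of the Oprm1-Cre plate (red) and the Slc32a1-Cre plate (blue); bars are exact 95% binomial intervals, which cover counting error only. Zfp521 is found in 1.11% and 9.76% of patch-leaning and matrix-leaning Oprm1-Cre nuclei, and Bach2 in 20.6% and 14.6% of them against 0% and 3.53% in the Slc32a1-Cre plate.

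In D2-like nuclei the genotype ratios were 1.22 for Isl1, which rests on the 1 Oprm1-Cre nucleus named above, -0.76 for Foxp2 (31.5 against 56.96 CPM) and -0.74 for Rarb (205.3 against 346.9 CPM). This is 1 of 8 measured members above 0.5 and 2 below -0.5, beside 23.5% and 29.2% of all measured genes. Sp9 (23.8 and 20.2 CPM), Foxp1, Bcl11b and Meis2 were between 0.01 and 0.22, and Bach2 was at -0.49.

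Interneuron-like nuclei held few reads of most SPN factors. In the Oprm1-Cre plate 9 of 10 members were below -0.5 and 0 above 0.5 relative to SPN-like nuclei (39.3% and 31.1% of all measured genes), and in the Slc32a1-Cre plate 6 were below and 2 above (34.1% and 30.8%). The median over the members was -2.58 and -2.54, beside -0.12 and -0.04 over all measured genes. Foxp2 was at 12.1 against 286.7 CPM (log2 ratio -4.10) and 3.89 against 184.1 CPM (-4.41), and Bcl11b at 12.1 against 262.1 CPM (-3.97) and 16.6 against 253.96 CPM (-3.58). Foxp1 (-3.21 and -2.45), Meis2 (-2.76 and -2.63) and Rarb (-2.41 and -2.91) were lower as well. These 5 had reads in some interneuron-like nuclei, Foxp1 in 7 of 15 and 11 of 18 with highest values of 378.4 and 720.4 CPM. Ebf1 had reads in 2 of 15 Oprm1-Cre nuclei (2 reads in all; 23.6% of SPN-like nuclei had reads) and in 0 of 18 Slc32a1-Cre nuclei, which allows a share of up to 16.7%, beside 16.4% of SPN-like nuclei after thinning. A difference in the share of nuclei with Ebf1 was therefore not detectable in the Slc32a1-Cre plate.

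For the other 4 members the reads lay in few nuclei, and the kinds of interneuron named here were set apart after their values were seen. Slc32a1-Cre Isl1 reads came from 2 of 18 nuclei (257.5 and 113.4 CPM), which are also the 2 that held both Chat and Slc5a7, the genes for acetylcholine synthesis and choline uptake. The same 2 nuclei held all Zfp521 reads (13.6 and 355.9 CPM) and no Ebf1 read. Another nucleus of that plate had Chat (324.7 CPM) without Slc5a7, and it held no Isl1 or Zfp521 read. With the 2 nuclei Zfp521 was above 0.5 (24.4 against 14.3 CPM, log2 ratio 0.60) and was -1.58 without the top nucleus of each sum. In the Oprm1-Cre plate, where no interneuron-like nucleus had Chat, Isl1 reads came from 1 of 15 nuclei (636 CPM). That nucleus held Ecel1, another listed cholinergic marker, at 883.8 CPM, but no Slc5a7, Slc18a3 or Slc17a8 read. Among interneuron-like nuclei Ecel1 was otherwise found only in the 2 with Chat and Slc5a7 (967 and 1040 CPM). Whether the nucleus is of their kind was not tested. The Isl1 ratio of -1.24 was -4.17 without the top nucleus of each sum. Zfp521 was at 0 against 9.59 CPM in that plate, with reads in 5.07% of SPN-like nuclei. A difference was not detectable, since 0 reads in the interneuron-like nuclei allow a share of up to 21.4%. Sp9 reads lay in 7 of 18 Slc32a1-Cre nuclei. These were 4 of the 7 nuclei with Pthlh and no Th and 3 of the 3 with Th above 300 CPM. Of the 3 with Th, 1 also had Pthlh (364.1 CPM). Of the 5 with Sst above 5000 CPM, 0 had an Sp9 read. In the Oprm1-Cre plate Sp9 had reads in 2 of 15 nuclei. They were 1 of the 3 with Sst and 1 of the 11 with Th past the same limits, so the split by kind was not alike in the plates. Its sums were 6.03 against 3.20 CPM and 16.1 against 9.73 CPM in interneuron-like and SPN-like nuclei (log2 ratios 0.43 and 0.52; -0.09 and 0.27 without the top nucleus of each sum), and the D2-like sums of 23.8 and 20.2 CPM lay above both. Bach2 gave -1.47 and -0.02, with reads in 2 and 3 nuclei.

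**Figure D5:**
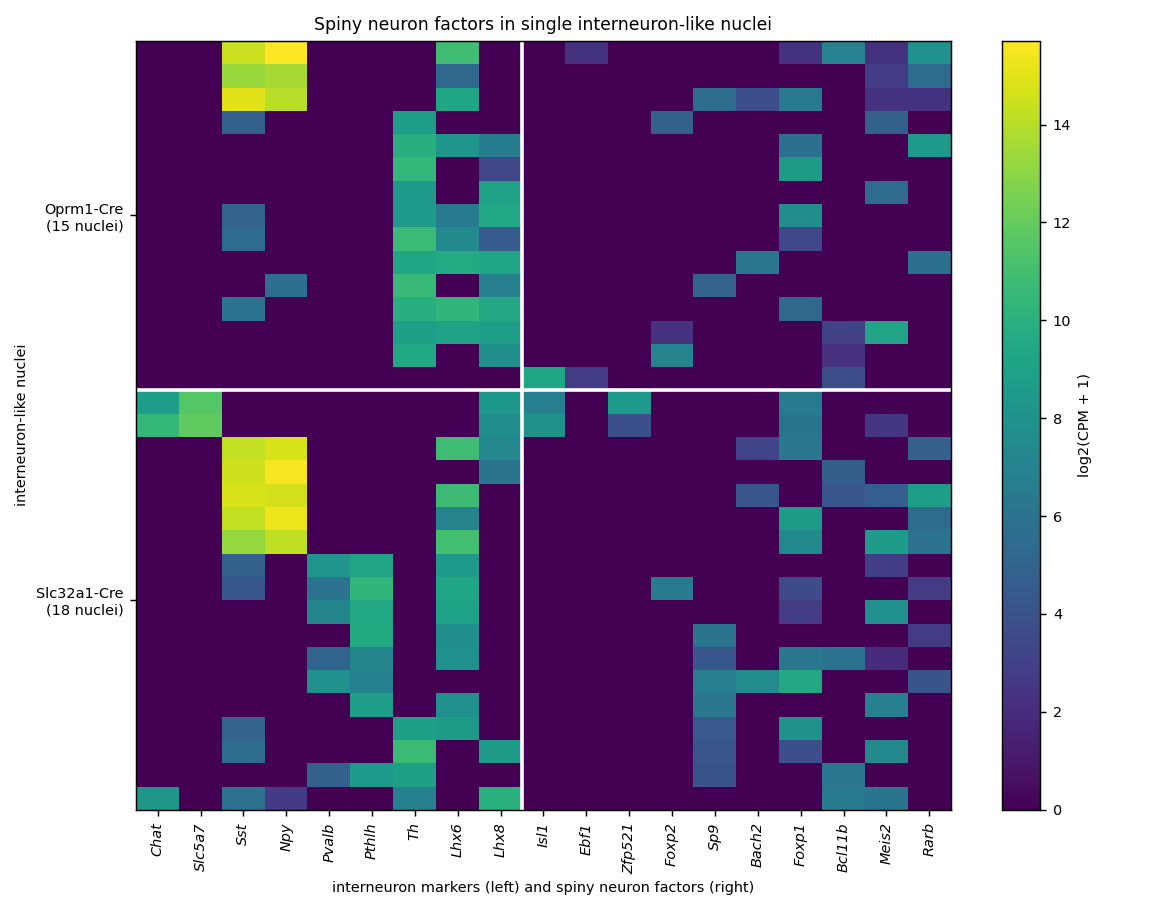
Each horizontal band is 1 interneuron-like nucleus (15 Oprm1-Cre above the white line, 18 Slc32a1-Cre below), with log2(CPM + 1) as colour for interneuron markers on the left and the 10 factors on the right. The 2 nuclei with Chat and Slc5a7 carry Isl1 and Zfp521. Sp9 is seen in 7 Slc32a1-Cre nuclei with Pthlh or Th and in 2 Oprm1-Cre nuclei, 1 with Sst and 1 with Th.

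Interneuron-like nuclei of the genotypes were not alike in kind: 11 of 15 Oprm1-Cre nuclei had Th above 300 CPM and 3 had Sst above 5000 CPM. The 18 Slc32a1-Cre nuclei divided into 7 with Pthlh and no Th, 5 with Sst, 3 with Th, 2 with Chat and Slc5a7 and 1 other. Beside that makeup, whose part in the difference was not tested, the ratio of Oprm1-Cre over Slc32a1-Cre was above 0.5 for 2 of 9 measured members (Foxp2 0.94 and Isl1 0.56) and below -0.5 for 3 (Zfp521 -2.56, Sp9 -0.93 and Foxp1 -0.66), where 33.4% and 36.8% of all measured genes were. Foxp2 rests on 3 nuclei in the Oprm1-Cre plate and 1 in the Slc32a1-Cre plate.

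Related factors were counted from lists drawn up by role, with earlier results of these data known. Counts are read beside all measured genes, of which 30.3% were above and 19.3% below in the Oprm1-Cre plate and 14.5% and 10.4% in the Slc32a1-Cre plate. Of 14 paralogs of the members (such as Meis1, Meis3 and Bcl11a), 4 were measured in the D1-like and D2-like nuclei of each plate, with 2 above 0.5 and 1 below -0.5 in the Oprm1-Cre and 0 and 1 in the Slc32a1-Cre plate. Meis1, a paralog of Meis2, was higher in D2-like nuclei (17.1 against 86.8 CPM, -2.06, and 24.6 against 41.6 CPM, -0.65). Meis3 had ratios of 0.92 and 0.15, the second inside 0.5, and Bcl11a, a paralog of Bcl11b, ratios of 0.32 and 0.496, both inside. Of 18 partners, 3 of 16 and 3 of 17 were above 0.5 and 1 and 1 below -0.5; among them Ldb2, a cofactor of LIM homeodomain proteins such as ISL1, was at 31.5 against 17.2 CPM (0.72) and 73.02 against 48.9 CPM (0.53). Of 27 factors of the striatal lineage, 12 and 13 were measured, with 3 and 1 above and 4 and 3 below; Six3 was higher in D2-like nuclei (-1.10 and -0.55), while Zfp503 (1.22 and 0.05) and Zfhx3 (-1.74 and -0.03) were inside 0.5 in the Slc32a1-Cre plate. Of 26 factors of mature SPNs, 23 and 24 were measured, with 3 and 2 above and 8 and 3 below, among them Crem (-1.60 and -0.54). In the retinoid list, which bears on Rarb, 6 and 4 of 12 genes were measured, with 2 and 0 above and 2 and 1 below; the retinol carrier gene Rbp4 was higher in D2-like nuclei (-1.66 and -0.70).

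The same lists were counted by leaning in D1-like nuclei, where 15.4% of all measured genes were above and 15.6% below in the Oprm1-Cre plate and 23.2% and 34.9% in the Slc32a1-Cre plate. Of the partners 3 of 17 and 5 of 16 were above 0.5 and 2 and 6 below -0.5; Ldb2 was lower in patch-leaning nuclei (24.2 against 45.1 CPM, -0.78, and 1.72 against 85.2 CPM, -3.75), the direction Zfp521 and Ebf1 had. Rxra, which codes for a dimer partner of RARB, was lower in patch-leaning nuclei too (-1.44 and -0.99), as were Zfhx3 (-1.09 and -2.09) and Rora (-0.64 and -1.96), while Gatad2b (-0.05 and -2.18) was inside 0.5 in the Oprm1-Cre plate. Higher in patch-leaning nuclei were Etv5 (0.69 and 1.87), Sox11 (0.99 and 1.31) and Egr1 (0.67 and 0.98), and Nr4a1 (1.963 and 2.87), which is itself in the patch list. Of the paralogs none of 4 passed 0.5 in the Oprm1-Cre plate, and in the Slc32a1-Cre plate 2 of 5 were below -0.5. Of the lineage factors 4 of 15 were above and 4 below, and 5 and 5 of 13.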

How the data were processed

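The authors deposited whole-number read counts per gene for each well, with no normalization: 24489 genes and 92 spike-ins, which were left out. Per the submitters' processing notes the build was mm10 and SAMtools and Seurat were used; the sources used here do not give the aligner, the annotation or the use of strand. The labels' protocols describe a kit for isolated RNA and a stranded total RNA library kit, and whether these apply to single nuclei could not be settled.

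The members, the related gene lists and the markers were chosen with earlier results of these data known. Wells with at least 1000 genes and 20000 reads were kept (736 of 768; 29 Oprm1-Cre and 3 Slc32a1-Cre wells were left out). Counts were scaled to 10000 per nucleus, logged, reduced to 2000 variable genes and 30 principal components and clustered (15 neighbours, Leiden resolution 1, seed 1), without the members. A score was the mean log2(CPM + 1) of a marker list. A cluster took another class, such as interneuron-like, where its score for that class lay more than 2 above the mean of all nuclei. Of the other clusters, an SPN score of at least 3 made a cluster SPN-like. In those, a D1 minus D2 score difference past 2 made a nucleus D1-like or D2-like. The interneuron-like cluster had an SPN score of 3.66 and an interneuron score of 3.65. Nuclei with markers of another class more than 4 above the mean (5 Oprm1-Cre, 2 Slc32a1-Cre) were set aside, a step chosen after seeing the data. No doublet caller was run; 73 possible doublets were left out as an alternative.

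Summed counts were expressed as CPM with exact 95% Poisson intervals, folds with exact conditional binomial intervals and shares with exact Clopper-Pearson intervals. Log2 ratios used a sum of 0 as it was, with 5 CPM added. Where a share was 0, the share said to be allowed is 3 nuclei out of the group, which lies below the upper Clopper-Pearson limit. The sums and ratios were tested on simulated data, in which unchanged genes passed 0.5 more often for D1-like over D2-like nuclei of Oprm1-Cre mice than of Slc32a1-Cre mice. Besides the members, the text names the 5 listed factors with the largest ratios in each direction that shared a sign in both plates (some genes are not reported here), and the 3 genes most like each member among genes with reads in at least 20% of nuclei. Tools were Python 3.11.15, numpy 2.4.6, pandas 2.3.3, scipy 1.17.1, scikit-learn 1.9.0, igraph 0.11.9, leidenalg 0.10.2 and matplotlib 3.10.9.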

Additional observations from a re-analysis of the deposited data

Results flagged for a closer look

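Bach2 had ratios of opposite sign in the plates. The log2 ratio of D1-like over D2-like nuclei was 1.17 in the Oprm1-Cre plate and -1.03 in the Slc32a1-Cre plate, and the difference was not tested, since each genotype is 1 sample. The D2-like sums rest on 30 reads in 6 of 24 nuclei and, for Slc32a1-Cre, on 11 nuclei (7.43%), 1 of which holds 37.6% of the reads. The plates also differed in sex-linked genes, and their part in the result was not tested.

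Reads of 4 members lay in the 29 Oprm1-Cre wells that were left out for low depth, which held 22834 reads on genes in all. Foxp1 had 7 reads in 6 wells, Bcl11b 4 reads in 4, Meis2 5 reads in 4 and Rarb 9 reads in 8, while the other 6 members had 0. The 3 Slc32a1-Cre wells left out held 25157 reads and 0 reads of any member. The source of these reads was not tested.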

How the results depend on the processing

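No paired analysis was possible because each genotype is 1 plate and no number pairs nuclei across plates. Of 1621 values of the members under alternative settings, 1178 stayed within the counting error of the reported value, 433 moved beyond it and 10 whose reported value was past 0.5 changed sign. Of the values reported within 0.5, 86 of 758 took the opposite sign. Without the top nucleus of each sum, Isl1 between genotypes was -0.0098 in D2-like and -1.38 in interneuron-like nuclei, Zfp521 in interneuron-like over SPN-like Slc32a1-Cre nuclei was -1.58 and Bach2 in patch-leaning over matrix-leaning D2-like Slc32a1-Cre nuclei -1.11. With classes taken from each nucleus alone, the genotype ratio in interneuron-like nuclei was -2.13 for Isl1 and -0.63 for Foxp2, and Zfp521 in interneuron-like over SPN-like Slc32a1-Cre nuclei was -1.80. After thinning, Foxp2 between genotypes was 0.0294 in D2-like and -0.0334 in interneuron-like nuclei. With a leaning limit of 1.5, Bach2 in D2-like nuclei by leaning was -1.47. The count of members past 0.5 was 3 rather than 5 between genotypes in interneuron-like nuclei with classes from each nucleus alone, and 7 rather than 4 by leaning in D2-like nuclei with a limit of 1.5; the cause was not tested. No member past 0.5 between D1-like and D2-like nuclei changed sign in its 14 alternatives. Taking ratios relative to the median of all measured genes shifts them by 0.10 in the Oprm1-Cre plate for D1-like over D2-like, by -0.12 for interneuron-like over SPN-like, by -0.13 and -0.52 for leaning in D1-like and D2-like Slc32a1-Cre nuclei and by 0.12 between genotypes in patch-leaning nuclei. Leaving out cluster 4, returning the nuclei set aside and the stricter interneuron rule were chosen after seeing the data.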

Other observations

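Among the 22 SPN-like nuclei that were undecided between D1 and D2, 3 stood out for Foxp2, of which 2 were above every D1-like nucleus. One Oprm1-Cre nucleus with 1315 genes detected had Foxp2 at 7370 CPM together with Meis2 at 5132 CPM. In the Slc32a1-Cre plate 1 undecided nucleus had Foxp2 at 3189 CPM, and another had Foxp2 at 2508 CPM with Sp9 at 631 CPM. The latter had 1403 genes detected, beside a plate median of 3424, with no Drd1, Drd2 or Ppp1r1b read and Pde10a at 17.1 CPM. The highest D1-like nuclei had 2158 and 2659 CPM. These are single nuclei, chosen after their values were seen.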
